A study of Arabidopsis thaliana with 6 samples.

Results

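Cytosolic ribosomal protein genes were examined in Arabidopsis seeds that lack normal expression of AGAMOUS-LIKE 67 (AGL67), a MADS-box transcription factor. They were taken as the probe sets whose title in the authors' annotation names a 40S ribosomal protein, a 60S ribosomal protein or a 60S acidic ribosomal protein. This gave 215 of the 22746 probe sets on the array, of which 85 belong to the small (40S) subunit and 130 to the large (60S) subunit. The titles cover 80 ribosomal proteins (32 small-subunit and 48 large-subunit), and 76 of these have at least 2 probe sets. Of the 215 probe sets, 208 carry a plain title, 3 are titled as related proteins, 2 as pseudogenes (RPL5C and RPS12B), and 2 belong to mitochondrial genes by their title or platform gene (an S10 and an L5). A further limit is that 34 of the 215 name several genes, so that near-identical paralogues cannot be told apart there, and cross-hybridisation between paralogues was not measured.

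Total RNA was taken from 3 samples of agl67 mutant seeds and 3 samples of wild-type seeds. Both genotypes were compared in the Columbia accession Col-0, and the labels describe the mutant only as a mads-box mutant, with the allele not given in the sources used here. Seeds of both genotypes were kept in water for 3 days in the dark at 4 °C (stratification, which breaks dormancy). They were then moved to light at 22 °C and held there for 3 h in 5 µM abscisic acid (ABA), which delays germination, so the wild-type seeds carried the same treatment and no untreated seeds were compared. Each sample was hybridised to 1 Affymetrix array, and all levels below are the deposited log2 values, on which a difference of 1 is a doubling.

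Ribosomal proteins are built with ribosomal RNA into the 2 subunits of the ribosome. The small subunit holds the messenger RNA and reads its codons, and the large subunit joins the amino acids. In Arabidopsis nearly every cytosolic ribosomal protein is encoded by several paralogous genes. Dry seeds hold ribosomes made during maturation, and germination depends on translation, while ABA restrains the growth that follows.

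AGL67 was measured first, as a check of the labels. It had log2 levels of 4.15, 4.30 and 3.66 in mutant seeds, against 8.79, 8.25 and 8.78 in wild-type seeds. The log2 change was -4.57 (SE 0.21, limma adjusted p = 0.000887), which is 23.8-fold lower in the mutant. The position of the probes relative to the lesion is not given in the sources used here. Of 12 fixed seed embryo markers 7 had a paired probe set, with mean log2 levels of 8.85 to 13.96 in mutant and 9.55 to 13.94 in wild-type seeds. Their changes lay between -1.91 and 0.13, with 1 called lower. The third wild-type array stood apart from the other 5. Its median over all probe sets was 3.797, against 3.969 to 3.996 on the others, and array weights fitted by limma gave it 0.209, against 0.787 to 1.94 for the others. Group summaries and the ribosomal proteins that passed are therefore also given without this array, as are named ribosomal proteins whose log2 change moved by more than 0.1 when it was left out. The labels call the samples biological replicates, and the p-values measure the spread between these 6 samples.

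By their median change, ribosomal protein transcripts were slightly higher in mutant than in wild-type seeds, and few passed the test on their own. This group shift was not tested, and its values on single arrays, given below, overlapped between the genotypes. The median log2 change, mutant minus wild type, was 0.13 over the 215 probe sets, with quartiles of 0.02 and 0.26 and a range of -1.28 to 0.89. Over all 22746 probe sets the median was 0.02. At an adjusted p under 0.05 in limma, 4 ribosomal protein probe sets rose (1.86%) and 0 fell, and 211 did not pass. The background of the same comparison is 438 probe sets higher (1.93%) and 177 lower (0.778%) in the mutant, or 593 and 449 after renewed quantile normalization. The share of ribosomal protein probe sets called higher was thus near the background of all probe sets. Among probe sets above the dimmest 40% of the array the share was lower than the background. It was 4 of 195 (2.05%) for ribosomal protein probe sets, against 3.14% of all probe sets above that limit. This difference was not tested.

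The small shift was spread over many genes. The change was above 0 for 171 of the 215 probe sets (79.5%), against 54.9% of all probe sets. The 3 mutant arrays were all above the 3 wild-type arrays for 62 ribosomal protein probe sets (28.8%), against 14.9% of all probe sets. They were all below for 10 (4.65%), against 9.16% of all probe sets. Above the dimmest 40% of the array, changes over 0.5 made up 6.15% of ribosomal protein probe sets, against 10.8% of all probe sets. Changes under -0.5 made up 0% there, against 3.06%. Among all 215, changes over 0.5 numbered 12 (5.58%, against 6.62% of all probe sets), and 2 were under -0.5 (0.93%, against 2.45%). Without the third wild-type array the median was 0.09 (all probe sets -0.01), 155 changes were above 0 (72.1%, against 46.6%), and the mutant arrays were all above the other wild-type arrays for 69 (32.1%, against 17.3%) and all below them for 17 (7.91%, against 18.7%). In these bulk samples more cells with active ribosome production and more such RNA in each cell cannot be told apart.

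These shares differed with brightness. Of the 215 probe sets, 195 lay above the dimmest 40% of the array, and their median change was 0.15, against 0.08 over all 13647 probe sets above that limit. Changes above 0 made up 84.1% of them, against 61.9%. The mutant arrays were all above the wild-type arrays for 61 of them (31.3%, against 21.2%) and all below for 5 (2.56%, against 9.59%). Without the third wild-type array 74.9% of these changes were above 0 (against 49.9%), with 68 all above (34.9%, against 23.1%) and 12 all below (6.15%, against 21.3%). The remaining 20 lay among the dimmest 40%, had a median change of -0.07 and showed 7 changes above 0. They include 4 of the 6 S15 probe sets, the pseudogenes RPL5C and RPS12B, the P1 gene AT5G24510 and RPP2E. Whether their signal exceeded the background of the array was not tested.

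**Figure D1:**
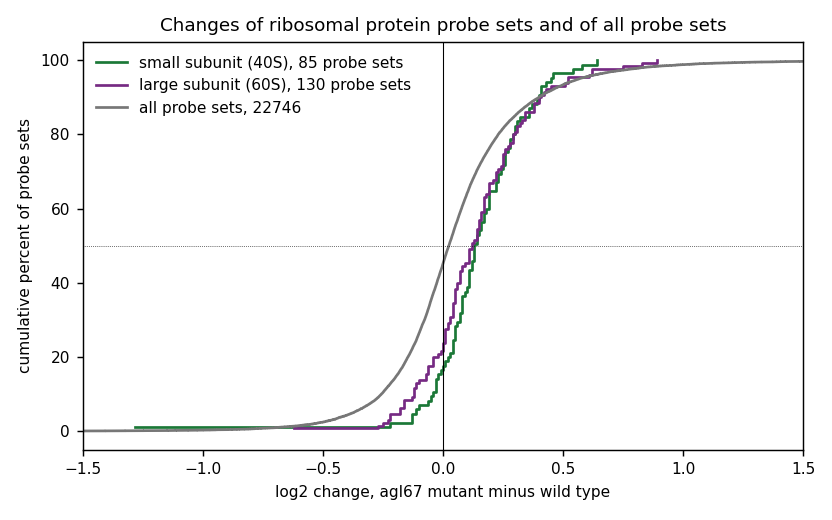
Cumulative percent of probe sets (vertical axis) by log2 change, mutant minus wild type (horizontal axis, shown from -1.5 to 1.5), for 85 small-subunit, 130 large-subunit and all 22746 probe sets. Both ribosomal curves lie to the right of the curve for all probe sets around their medians of 0.13 and 0.12, against 0.02, and above a change of about 0.5 the 3 curves run close together.

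The 2 subunits had nearly the same median change. Small-subunit probe sets had a median log2 change of 0.13, with 70 of 85 above 0 (82.4%), 1 called higher (1.18%), 25 with the mutant arrays all above the wild-type arrays (29.4%) and 2 with them all below (2.35%). Large-subunit probe sets had a median of 0.12, with 101 of 130 above 0 (77.7%), 3 called higher (2.31%), 37 all above (28.5%) and 8 all below (6.15%). Over all probe sets these shares were 1.93% called higher, 14.9% all above and 9.16% all below. Without the third wild-type array the medians were 0.10 for the small and 0.08 for the large subunit, with 3.53% of the small-subunit and 10.8% of the large-subunit probe sets all below (18.7% of all probe sets). The difference between the subunits was not tested.

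The shift differed from array to array within each genotype. Relative to each probe set's mean over the 6 arrays, the median ribosomal protein deviation was 0.07, 0.12 and 0.00 on the mutant arrays, against -0.07, 0.03 and -0.13 on the wild-type arrays. The genotypes overlap, since the second wild-type array (0.03) lay above the third mutant array (0.00). Over all probe sets the deviations were 0.02, 0.01 and 0.02 on the mutant arrays, against 0.01, 0.03 and -0.11 on the wild-type arrays. The third wild-type array was thus low over all probe sets as well, while the second mutant array was high for the ribosomal proteins and not over all probe sets. The second mutant array held the highest value for 99 of 215 ribosomal protein probe sets (46%), against 17.7% of all probe sets. The third wild-type array held the lowest value for 96 (44.7%), against 44.3% of all probe sets, and the first wild-type array for 53 (24.7%), against 11.4%. Both subunits followed the same pattern, with small-subunit deviations of 0.07, 0.14 and 0.00 in mutant and -0.07, 0.02 and -0.15 in wild-type seeds. Large-subunit deviations were 0.06, 0.12 and 0.00 in mutant and -0.08, 0.03 and -0.12 in wild-type seeds.

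**Figure D2:**
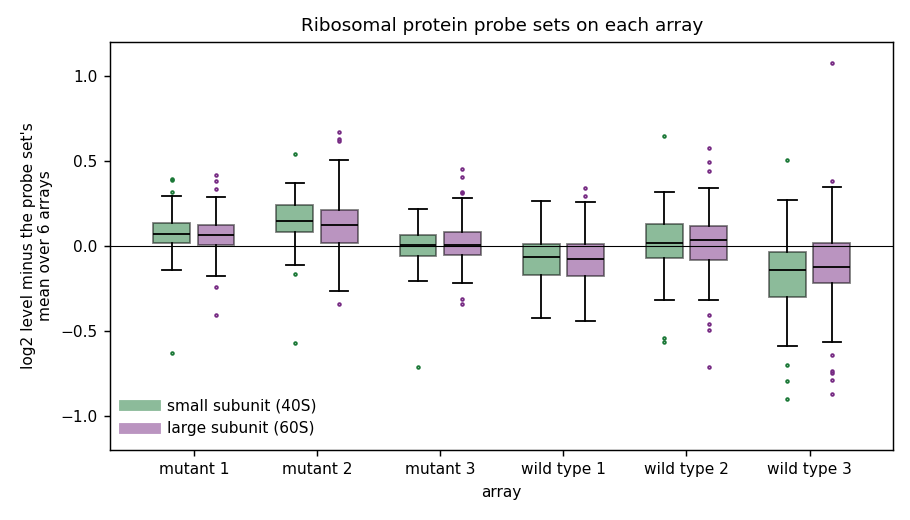
Log2 level minus the probe set's mean over the 6 arrays (vertical axis) for small-subunit (green) and large-subunit (purple) probe sets on each array. Boxes show the median and quartiles, whiskers reach to 1.5 times the box height and points lie beyond, with 2 points off the axis (RPS15E at 2.89 and RPL10B at -1.28, both on the third wild-type array). The boxes are highest on the second mutant array and lowest on the third wild-type array, and those of the third mutant and second wild-type arrays lie side by side.

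The size of the median depended on which array was used, and its sign did not in any of these fits. With each array left out in turn it lay between 0.10 and 0.20 for the small subunit and between 0.08 and 0.16 for the large subunit. The number of probe sets called higher moved much more, between 0 and 9.

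**Figure D3:**
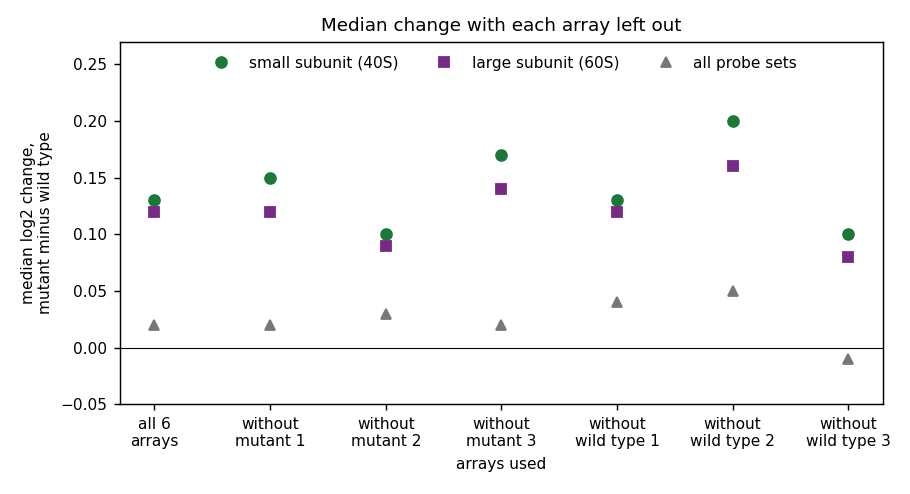
Median log2 change, mutant minus wild type (vertical axis), of small-subunit, large-subunit and all probe sets with all 6 arrays and with each array left out (horizontal axis). Ribosomal medians stay between 0.08 and 0.20 and above the median of all probe sets, which is -0.01 without the third wild-type array.

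Of the 4 probe sets that rose, 2 encode proteins of the stalk region of the large subunit, where translation factors that split GTP bind. L12 sits at the base of the stalk. RPL12C (AT5G60670) had log2 levels of 9.06, 9.35 and 8.96 in mutant seeds, against 8.33, 8.43 and 7.94 in wild-type seeds. The groups do not overlap, and the third wild-type array was the lowest. The log2 change was 0.89 (SE 0.16, limma adjusted p = 0.0381) and was 0.75 without that array (adjusted p = 0.0126). The authors' deposited table gives this probe set a false discovery rate of 0.0589.

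The changes of its paralogues were smaller. RPL12A (AT2G37190) was at 9.95, 9.88 and 9.82 in mutant seeds, against 9.62, 9.93 and 9.59 in wild-type seeds, with a change of 0.17 (SE 0.12, adjusted p = 0.548). RPL12B (AT3G53430) was at 9.71, 9.86 and 9.72 in mutant seeds, against 9.57, 9.63 and 9.65 in wild-type seeds, with a change of 0.15 (SE 0.10, adjusted p = 0.512). Neither passed, although the arrays of RPL12B did not overlap. The change of RPL12C exceeded that of RPL12A by 0.72 (SE 0.16) and that of RPL12B by 0.75 (SE 0.18). In these and the paralogue differences below, the exact two-sided permutation p was 0.1, the smallest that 3 against 3 samples can give, so none can pass a threshold of 0.05 by itself. In all, 201 pairs of probe sets for the same protein were computed, some of which name the same genes. Of these 201 pairs, 63 had differences that did not overlap between the genotypes. Pairs exist only within a protein and share probe sets. No share over all probe sets was formed to set beside this count, so it cannot be read as high or low. The pairs printed were chosen by the changes of their probe sets in these same arrays.

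P0 anchors the stalk to the large subunit and carries the dimers of the small acidic proteins P1 and P2, and of the plant-specific P3. RPP0A (AT2G40010) had log2 levels of 5.72, 5.89 and 5.79 in mutant seeds, against 5.28, 4.89 and 4.74 in wild-type seeds. All mutant arrays were above all wild-type arrays, with a log2 change of 0.83 (SE 0.15, limma adjusted p = 0.035), or 0.72 with the third wild-type array left out (adjusted p = 0.0148). The authors' deposited table gives it a false discovery rate of 0.0284. RPP0B (AT3G09200) was at 11.09, 11.18 and 11.03 in mutant seeds, against 11.11, 11.04 and 10.89 in wild-type seeds, with a change of 0.09 that did not pass. RPP0C (AT3G11250) was at 7.37, 7.51 and 7.23 in mutant seeds, against 7.36, 7.28 and 6.45 in wild-type seeds. Its change of 0.34 did not pass and was 0.05 without the third wild-type array, which alone was low. The change of RPP0A exceeded that of RPP0B by 0.74 (SE 0.11) and that of RPP0C by 0.49 (SE 0.21).

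The other acidic stalk proteins did not pass. The 14 probe sets for P0, P1, P2 and P3 had a median log2 change of 0.19, with 12 above 0, and a median of 0.05 without the third wild-type array, so this median rested in large part on that array. RPP3A (AT4G25890) came closest to P0 in size, at 4.82, 5.02 and 4.49 in mutant seeds, against 4.32, 4.15 and 3.61 in wild-type seeds. The mutant arrays were all above the wild-type arrays, with a change of 0.75 (SE 0.21, limma adjusted p = 0.134). The change was 0.54 with the third wild-type array left out. RPP3B (AT5G57290), at 7.72, 7.80 and 7.67 in mutant seeds, against 7.57, 7.58 and 7.39 in wild-type seeds, also did not overlap, with a change of 0.21. The P1 probe sets RPP1A, RPP1B and RPP1C had changes of 0.03, 0.38 and 0.16, or -0.08, 0.20 and 0.04 without the third wild-type array, and the dim AT5G24510 one of -0.18. Those for P2, RPP2A to RPP2E, had changes of 0.29, -0.04, 0.14, 0.25 and 0.07, or 0.24, -0.12, -0.26, 0.12 and 0.04 without that array. The signs of RPP1A and RPP2C thus turned with it, and none of these P1 and P2 changes passed.

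In the small subunit 1 of 85 probe sets rose, RPS17C, for the structural protein S17. Its gene is AT3G10610, and it had log2 levels of 7.71, 7.69 and 7.53 in mutant seeds, against 7.08, 7.12 and 6.80 in wild-type seeds. The groups were apart, with a log2 change of 0.64 (SE 0.12, limma adjusted p = 0.0414), or 0.54 with the third wild-type array left out (adjusted p = 0.0177). The authors' deposited table gives it a false discovery rate of 0.0578. The other S17 probe set, RPS17A, names 3 genes (AT2G04390, AT2G05220 and AT5G04800) and was at 10.61, 10.53 and 10.52 in mutant seeds, against 10.30, 10.66 and 10.59 in wild-type seeds. It overlapped between the genotypes, with a change of 0.04, which was 0.61 less than that of RPS17C (SE 0.17).

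L19, a large-subunit protein that reaches across to the small subunit, gave the most even of the 4 rises. RPL19B (AT3G16780) had log2 levels of 8.30, 8.22 and 8.47 in mutant seeds, against 7.75, 7.70 and 7.68 in wild-type seeds. Here the third wild-type array was level with the others, and the log2 change of 0.62 (SE 0.10, limma adjusted p = 0.0284) was 0.61 without it (adjusted p = 0.0145). The authors' deposited table gives it a false discovery rate of 0.0197. Its paralogues lay on the other side of 0. RPL19A was at 10.94, 10.95 and 10.94 in mutant seeds, against 11.03, 10.99 and 11.01 in wild-type seeds, a change of -0.07 that did not pass although the arrays did not overlap. RPL19C (AT4G02230) was at 9.56, 9.37 and 9.48 in mutant seeds, against 9.49, 9.65 and 9.75 in wild-type seeds, with a change of -0.16 that did not pass. The L19 probe set for AT4G16030 lay among the dimmest 40% with a change of -0.16, or -0.04 without that array. The change of RPL19B exceeded that of RPL19A by 0.69 (SE 0.08) and that of RPL19C by 0.78 (SE 0.12).

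**Figure D4:**
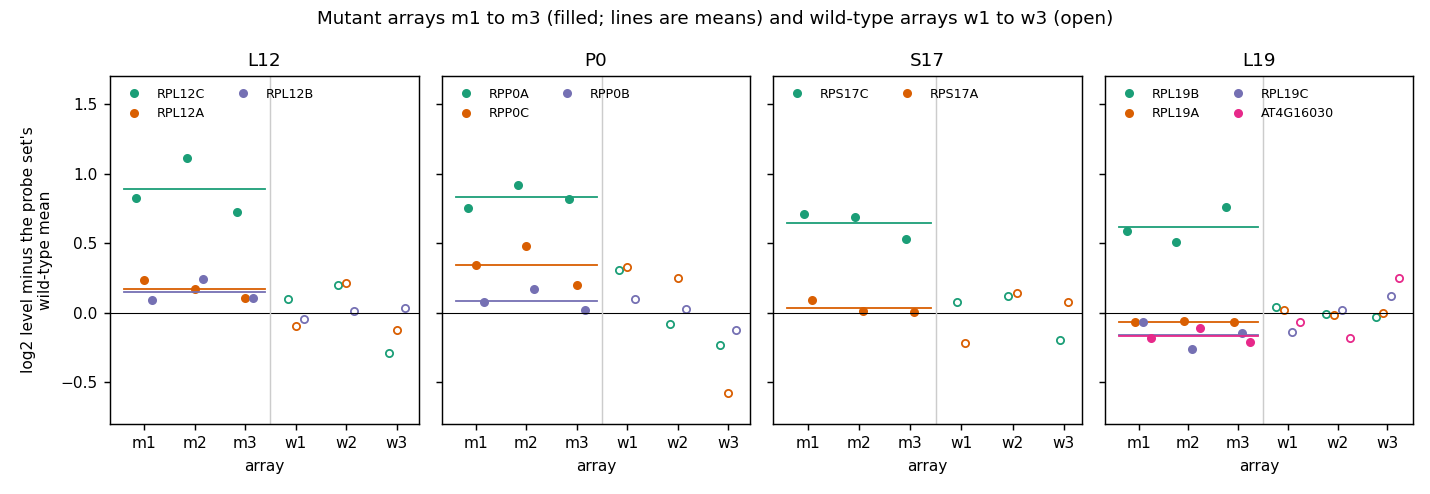
Log2 level minus the probe set's own wild-type mean (vertical axis) on the mutant arrays m1 to m3 (filled points, lines at their means) and the wild-type arrays w1 to w3 (open points) for every L12, P0, S17 and L19 probe set. In each panel 1 paralogue lies apart from the others on all 3 mutant arrays, with changes of 0.89 (RPL12C), 0.83 (RPP0A), 0.64 (RPS17C) and 0.62 (RPL19B).

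The 4 calls stood close to the threshold of 0.05. Without the third wild-type array all 4 passed and 9 probe sets were called higher, against 877 of all probe sets higher (3.86%) and 653 lower (2.87%). Without the first wild-type array only RPP0A passed (change 0.99, adjusted p = 0.0152), and without the second wild-type array or any 1 of the mutant arrays 0 passed. In the authors' deposited table RPL19B and RPP0A pass at a false discovery rate of 0.05, with 355 of all probe sets called higher (1.56%) and 157 lower (0.69%). At a threshold of 0.1 for all 6 arrays, 9 ribosomal protein probe sets passed as higher, against 814 of all probe sets higher (3.58%) and 336 lower (1.48%). The 5 that passed besides the 4 without the third wild-type array were RPL29B, RPL35C, RPL35aA, RPL7D and RPS30C, named here after their values were seen. RPL29B was at 7.66, 7.68 and 7.67 in mutant seeds, against 7.10, 7.22 and 7.92 in wild-type seeds, so that the third wild-type array alone was high. Its change of 0.25 was 0.51 without that array, and the change of RPL35C was 0.54 in place of 0.40. RPS30C, whose probe set names 3 genes, was at 8.54, 8.54 and 8.56 in mutant seeds, against 8.19, 8.10 and 8.13 in wild-type seeds, with a change of 0.41 (SE 0.09) and an adjusted p of 0.0642 with all 6 arrays. The probe sets RPS30A and RPS30B name the same 3 genes, and both overlapped between the genotypes. Their changes were 0.12 (0.24 without the third wild-type array) and -0.06.

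Probe sets of 1 protein were compared by the sign and the span of their changes. Most proteins are represented by paralogues, but some probe sets name the same genes, as for S30 and L38. Of the 76 proteins with at least 2 probe sets, 46 had every change above 0, 2 had every change below 0 (L27a and L28) and 28 had changes on both sides, where 79.5% of all 215 single changes were above 0. The median span between the highest and lowest change of a protein was 0.26, or 0.24 without the third wild-type array. The 8 widest spans belonged to S15 (1.41), L10 (0.88), L19 (0.79), L12 (0.75), P0 (0.74), L37 (0.65), S17 (0.61) and L11 (0.58). Of these 8 proteins, 5 were also among the 8 widest without the third wild-type array.

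**Figure D5:**
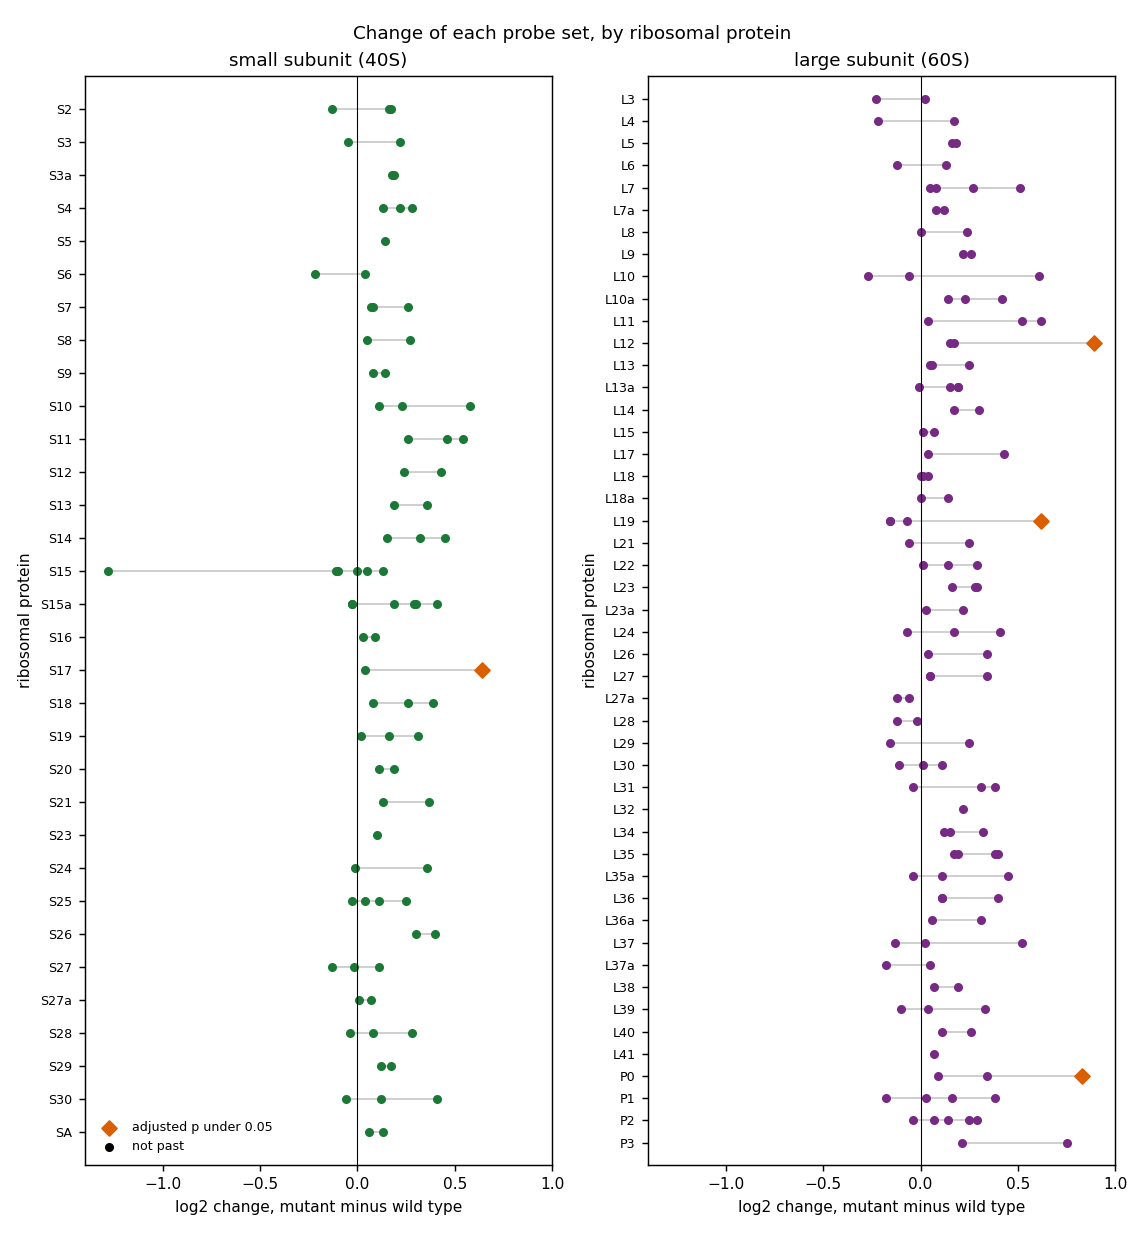
Log2 change, mutant minus wild type (horizontal axis), of the 208 probe sets with a plain title, 1 row per ribosomal protein, small subunit left and large subunit right. A line joins the probe sets of 1 protein, and pseudogenes, mitochondrial genes and related titles are not drawn. Diamonds mark the 4 that passed, each at the right end of its row, and the point at -1.28 in the S15 row is RPS15E.

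The span of S15, a protein of the small subunit's head, came from 1 value. RPS15E (AT5G43640) was at 2.66, 2.72 and 2.58 in mutant seeds, against 2.87, 2.75 and 6.18 in wild-type seeds, where the third wild-type array alone was high. Its change of -1.28 had an SE of 0.83 and did not pass, and without that array it was -0.15 and the span of S15 was 0.27. The other S15 changes lay between -0.11 and 0.13. Without that array RPS15B had 0.12 in place of -0.11 and AT5G63070 had 0.01 in place of -0.10. The second lowest change, -0.62, belonged to the pseudogene RPL5C and was -0.24 without the third wild-type array. Also among the 10 lowest were the mitochondrial L5 gene (-0.25, or -0.34 without that array), a probe set for 2 genes titled as related to a 60S protein (AT5G39800 and AT5G40080, -0.22, or -0.40 without that array) and the dim RPL37aB (-0.18), and none passed.

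L10 helps to complete the large subunit late in its assembly. RPL10B was at 6.27, 6.68 and 6.13 in mutant seeds, against 6.29, 6.19 and 4.77 in wild-type seeds, so that only the third wild-type array was low. Its change of 0.61 (SE 0.39, adjusted p = 0.493) was 0.12 without that array. RPL10C was at 12.22, 12.11 and 12.04 in mutant seeds, against 12.55, 12.34 and 12.29 in wild-type seeds. It was the lowest change among probe sets above the dimmest 40%, at -0.27 (-0.32 without the third wild-type array), with no overlap between genotypes and an adjusted p of 0.282. RPL10A had a change of -0.06, or -0.18 without that array.

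L11 and L5 enter the large subunit together with 5S ribosomal RNA. RPL11C was at 9.94, 10.10 and 10.02 in mutant seeds, against 9.66, 9.00 and 9.55 in wild-type seeds, with a change of 0.62 (SE 0.18, adjusted p = 0.136). The RPL11C probe set names several genes. RPL11A was at 6.62, 6.90 and 6.60 in mutant seeds, against 6.31, 6.18 and 6.08 in wild-type seeds, with a change of 0.52 (SE 0.12, adjusted p = 0.08). In both the genotypes were apart and neither passed. RPL11B, at 8.60, 8.69 and 8.68 in mutant seeds, against 8.63, 8.67 and 8.55 in wild-type seeds, had a change of 0.04. The change of RPL11C exceeded that of RPL11B by 0.58 (SE 0.23). The partner L5 showed 0.16 for RPL5B, with levels of 9.27, 9.36 and 9.32 in mutant seeds, against 9.15, 9.12 and 9.20 in wild-type seeds, and 0.18 for its other cytosolic probe set.

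L37, a small protein of the large subunit, had 1 high paralogue. RPL37C (AT3G16080) was at 8.88, 8.96 and 8.72 in mutant seeds, against 8.24, 8.72 and 8.05 in wild-type seeds. Its lowest mutant and highest wild-type arrays were level to 2 decimals, and the change of 0.52 (SE 0.18, adjusted p = 0.202) was 0.38 without the third wild-type array. RPL37A and RPL37B had changes of -0.13 and 0.02, and RPL37C exceeded RPL37A by 0.65 (SE 0.11).

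Further changes among the 10 highest that did not pass were those of RPS10A and RPS11B, both in the small subunit. RPS10A (AT4G25740) was at 7.62, 7.56 and 7.38 in mutant seeds, against 6.90, 7.24 and 6.68 in wild-type seeds, with a change of 0.58 (SE 0.16, adjusted p = 0.116), or 0.45 without the third wild-type array. RPS11B (AT4G30800) was at 5.64, 5.97 and 5.49 in mutant seeds, against 5.36, 5.48 and 4.63 in wild-type seeds, and its change of 0.54 was 0.28 without that array. Both had all mutant arrays above the wild-type arrays.

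S6 is the ribosomal protein that S6 kinase phosphorylates downstream of the TOR kinase, which ties ribosome production to nutrients and growth. RPS6A was at 9.33, 9.42 and 9.33 in mutant seeds, against 9.58, 9.70 and 9.46 in wild-type seeds. It was lower on every mutant array, and its change of -0.22 (SE 0.10, adjusted p = 0.35) did not pass. RPS6B was at 9.81, 9.85 and 9.74 in mutant seeds, against 9.85, 9.82 and 9.60 in wild-type seeds, and had a change of 0.04.

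S18, S13 and S5 are small-subunit proteins whose loss narrows leaves or slows growth in Arabidopsis. RPS18A, RPS18B and RPS18C had changes of 0.26, 0.39 and 0.08, and that of RPS18B was 0.19 without the third wild-type array. The S13 probe sets had changes of 0.36 and 0.19, or 0.29 and 0.04 without that array, and RPS5A by 0.14. None of the 6 passed.

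Among proteins of the large subunit's core, L3 lies near the site of peptide bond formation and L4 lines the exit tunnel of the new peptide. RPL3A had a change of 0.02. RPL3B was at 6.12, 5.98 and 6.13 in mutant seeds, against 6.39, 6.68 and 5.84 in wild-type seeds. Its change of -0.23 was -0.46 with the third wild-type array left out (adjusted p = 0.0552), the array on which it was lowest. RPL4A (AT3G09630) was at 9.79, 9.86 and 9.76 in mutant seeds, against 10.17, 10.04 and 9.87 in wild-type seeds, lower on every mutant array with a change of -0.22 (adjusted p = 0.374). Its paralogue RPL4D (AT5G02870) had a change of 0.17, with overlap.

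L10a belongs to the arm that guides spent transfer RNA out of the ribosome. RPL10aA, RPL10aB and RPL10aC had changes of 0.23, 0.14 and 0.42. RPL10aC (AT5G22440) was at 8.19, 8.46 and 8.11 in mutant seeds, against 8.00, 7.85 and 7.65 in wild-type seeds, with no overlap and an adjusted p of 0.191, and its change was 0.32 without the third wild-type array. RPL23aA and RPL23aB, for a protein at the mouth of the exit tunnel, had changes of 0.03 and 0.22. RPL38A and RPL38B, whose probe sets both name the same 2 genes, had changes of 0.19 and 0.07. The L27a probe sets RPL27aA and RPL27aB had changes of -0.12 and -0.06. L24 takes part in translation after upstream open reading frames in Arabidopsis. RPL24A was at 8.31, 8.51 and 8.35 in mutant seeds, against 7.89, 8.24 and 7.81 in wild-type seeds, with a change of 0.41. The other L24 probe sets, RPL24B and that for AT2G44860, had changes of -0.07 and 0.17. None of these passed.

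Other parts of the translation machinery gave the setting of these values. Organelle ribosomal proteins were taken by titles naming a 30S or 50S ribosomal protein, or a ribosomal protein of the chloroplast or mitochondrion. Of these 31 probe sets, 6 rose (19.4%, against 1.93% of all probe sets) and 0 fell. Their median log2 change was 0.36 (0.24 without the third wild-type array). The mutant arrays were all above the wild-type arrays for 16 of them (51.6%, against 14.9%). The 30S protein gene AT5G24490 was at 7.90, 8.00 and 8.07 in mutant seeds, against 6.76, 6.93 and 6.52 in wild-type seeds, a rise of 1.25 (limma adjusted p = 0.0052). The chloroplast 50S proteins CL4 and CL21 rose by 0.88 (adjusted p = 0.00942) and 0.77 (adjusted p = 0.0199). Of 78 further probe sets titled as ribosomal proteins without a subunit, 6 rose (7.69%, against 1.93%) and 0 fell, with a median of 0.17 (0.09 without the third wild-type array). They include an L18 family protein (0.95, adjusted p = 0.00534), an L6 family protein (1.15, adjusted p = 0.0299) and the L3 family gene AT2G43030 (0.56, adjusted p = 0.0396). These titles do not say whether the protein is cytosolic or of an organelle.

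Among probe sets titled for ribosome biogenesis, 1 of 48 rose (2.08%, near the 1.93% of all probe sets), the rRNA processing gene AT5G61330 (0.57, adjusted p = 0.0457), and the median was 0.06. Of 7 elongation factor probe sets 0 passed with all 6 arrays. Without the third wild-type array 2 of the 7 passed as higher, against 3.86% of all probe sets in that fit. The median of the 7 was 0.33 (0.35 without that array). The mutant arrays were all above the wild-type arrays for 4 of the 7 (57.1%, against 14.9% of all probe sets). The nearest was AT5G12110, a subunit of the factor that recharges eEF1A with GTP. It was at 6.17, 6.32 and 5.91 in mutant seeds, against 5.14, 5.44 and 4.43 in wild-type seeds, with a change of 1.13 (adjusted p = 0.065), or 0.84 without that array (adjusted p = 0.0114). Its paralogue AT5G19510 had a change of 0.47 (adjusted p = 0.073). Of 63 initiation factor probe sets, 1 for SUI1, which helps to choose the start codon, rose by 0.51 (adjusted p = 0.0476), and 1 for eIF-5 (AT1G36730) fell by 0.69 on the log2 scale (adjusted p = 0.042). The list's median was 0.00. The share called higher, 1.59%, was near the 1.93% of all probe sets, while the 1 of 63 called lower stands against 0.778%. TOR was at 6.70, 6.60 and 6.46 in mutant seeds, against 6.95, 6.78 and 6.21 in wild-type seeds, a change of -0.06 (adjusted p = 0.905), or -0.28 without the third wild-type array, on which it was lowest. Among its partners and the nucleolar fibrillarins, RAPTOR1A, RAPTOR1B, FIB1 and FIB2 had changes of 0.02, -0.09, 0.13 and 0.45, or -0.10, -0.26, 0.13 and 0.34 without that array, and none passed. The S6 kinase genes S6K1 and S6K2 were listed but not paired with a probe set, so they were not analysed here.

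Markers of the parts of the seed moved beside these values. Of 5 fixed endosperm markers 2 were paired. CYSP1, a cysteine proteinase, rose by 1.72 (adjusted p = 0.00354), and EXPA2, an expansin, was at 4.61, 4.31 and 4.92 in mutant seeds, against 3.62, 4.25 and 3.47 in wild-type seeds, a change of 0.84 that did not pass. Their summed log2 level was 12.97 to 13.78 in mutant and 10.75 to 11.05 in wild-type seeds. Of the 7 paired embryo markers the storage protein gene SESA4 fell by 1.91 on the log2 scale (adjusted p = 0.013) and the other 6 did not pass. Of these, SESA1 (-0.48) and CRA1 (-0.26) had all mutant arrays below the wild-type arrays, SESA2 and SESA3 had changes of -0.45 and -0.19 with overlap, and EM1 and EM6 had changes of 0.13 and 0.02. The summed level was 78.44 to 81.48 in mutant and 82.72 to 84.49 in wild-type seeds. The 2 paired of 4 seed coat markers, BAN and PRX36, were dim, with a summed level of 5.88 to 6.31 in mutant and 6.02 to 6.41 in wild-type seeds, and 0 of 5 green leaf markers were paired. No marker was listed at 0. Their part in the ribosomal protein values was not tested.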

How the data were processed

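Expression was measured in 6 seed samples, 1 Affymetrix array each. The deposited value table holds log2 levels per probe set, and RMA and limma are named, without versions, per the submitters' processing notes. The authors' deposited comparison table gives log2 ratios with p-values and false discovery rates, and was used for titles and as an alternative. Neither names a genome build.

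The 64 control probe sets were left out. A linear model with genotype as its term was fitted to the deposited values without further scaling (limma 3.58.1, R 4.3.3, lmFit and eBayes), with Benjamini-Hochberg adjustment over all 22746 probe sets and a threshold of 0.05. Single differences between paralogues were given an exact two-sided permutation test (scipy 1.17.1). The fit was tested on simulated data. Since only 3 arrays per genotype exist, their number limits the precision.

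Members, lists and tests were chosen with earlier results of these data known. Loci come from the platform's table, which gives 1 gene for 138 members, several for 27 and none for 50. Other members are named by the symbol in their title. Lists of pathway genes were made from title words, and marker genes by locus or name. Named members are those past the threshold, the 10 highest and 10 lowest changes, the 8 proteins with the widest span, and the stalk, S5, S6, S13, S18, L3, L4, L5, L10, L10a, L11, L12, L23a, L24, L27a and L38 in any case. From each other list up to 3 that passed are named or, where 0 passed, 2 with the smallest p. Of 18 regulators listed by locus, S6K1 and S6K2 among them, 5 were paired with a probe set, and these are named in any case. Alternatives were each array left out, a replicate block, an intensity trend, robust estimation, array weights, renewed quantile normalization, median centring, leaving out the dimmest 40%, the authors' table, other choices of probe sets and a threshold of 0.1.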

Additional observations from a re-analysis of the deposited data

How the results depend on the processing

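The median change of the ribosomal protein probe sets stayed above 0 in every alternative run, from 0.07 with array weights or with arrays centred on their medians to 0.17 without the second wild-type array. With centred arrays 134 of the 215 changes were above 0 (62.3%, against 41.6% of all probe sets). Numbers of calls depended on the setting. Ribosomal protein probe sets called higher numbered 4 with all arrays, 0 to 9 with 1 array left out, 10 with array weights, 2 in the authors' deposited table, 9 at a threshold of 0.1 and 1 with the replicate number as a block (RPL12C). They stayed at the same 4 under robust estimation, quantile normalization, centring or without the dimmest 40%, and were 5, with these 4 among them, under an intensity trend. None was called lower with any 1 array left out. Over all probe sets, the 438 called higher became 68 to 877 with 1 array left out, 956 with array weights and 814 at a threshold of 0.1. The 177 called lower became 18 to 653 with 1 array left out, 110 with the block, 534 with array weights, 449 after quantile normalization, 340 with centred arrays and 336 at a threshold of 0.1. The causes were not tested. Same-numbered samples showed correlations of -0.158, 0.145 and 0.217 in their deviations from the group means. Differently numbered samples ranged from -0.334 to 0.337. With so few arrays per genotype, these values cannot show whether the replicate numbers pair the samples. Of the 66 named members that did not pass, 19 changed sign in at least 1 alternative while not past the threshold. Levels of dim probe sets and of paralogues that share a probe set are limited by the array.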
